A study of Mus musculus with 12 samples.

Results

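Xxylt1, Impg2 and Zc3h6 are 3 genes that lie away from Il18 and were picked because a probe of each differed between mice lacking interleukin-18 and wild-type mice in 1 direction in all 6 brain regions measured. Every probe of these genes was taken, 6 of the 41174 gene probes on the array and 3 of its 16358 named genes. Xxylt1 had 1 probe, Impg2 had 3 and Zc3h6 had 2. The genes were selected on the difference between genotypes itself, KO minus WT in these 12 arrays, so it is given here as a description with no test. Tests were run on the level in each region averaged over genotypes, which did not choose them, and on other genes. The error of the region tests still came from the spread of the KO minus WT differences, which the choice may have narrowed.

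The tested animals were IL-18 KO mice and the controls were WT mice, all males of 12 weeks labelled as C57BL/6. Interleukin-18 is a cytokine of the interleukin-1 family. The study's design text describes F2 littermates of a cross between IL-18-/- mice and C57BL/6J mice, so the animals of both genotypes came from a segregating cross. Each genotype had 1 array in amygdala, hippocampus, hypothalamus, olfactory bulb, prefrontal cortex and striatum, 12 arrays in all, with RNA pooled from 5 mice on each array. Whether pools of separate regions drew on the same animals is not stated in the sources used here, so differences in different regions may share animals. A level below is the log2 processed signal of a probe minus the 75th percentile of its array, and a difference is the level on the KO array minus that on the WT array of the same region.

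Xxylt1 encodes a xylosyltransferase of the endoplasmic reticulum that completes an O-linked sugar chain on the epidermal growth factor (EGF) repeats of Notch receptors and related proteins. Notch receptors carry signals between neighbouring cells through their cleaved intracellular part, which switches on target genes such as Hes1. Impg2 encodes interphotoreceptor matrix proteoglycan 2, a transmembrane proteoglycan known from the matrix around retinal photoreceptors, where it binds hyaluronan, and loss of the human gene causes retinal degeneration. Zc3h6 encodes a protein with CCCH zinc fingers, a fold that many RNA-binding proteins carry, and little is known of its role.

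Xxylt1 and Impg2 both lie on chromosome 16, with 115 other tested named genes between them, Zc3h6 lies on chromosome 2 and Il18 on chromosome 9. The promoters of the 3 genes are shown because Xxylt1 and Zc3h6 were both higher and Impg2 lower on the KO arrays. The sequences are from RefSeq on GRCm38.p6, from 250 bases before to 50 after the start of the gene, 5′ to 3′ on the strand of the gene, with CG dinucleotides in capitals. The Xxylt1 promoter is chr16:31081383-31081682 on the minus strand, that of Impg2 is chr16:56204063-56204362 on the plus strand and that of Zc3h6 is chr2:128967152-128967451 on the plus strand.
Xxylt1: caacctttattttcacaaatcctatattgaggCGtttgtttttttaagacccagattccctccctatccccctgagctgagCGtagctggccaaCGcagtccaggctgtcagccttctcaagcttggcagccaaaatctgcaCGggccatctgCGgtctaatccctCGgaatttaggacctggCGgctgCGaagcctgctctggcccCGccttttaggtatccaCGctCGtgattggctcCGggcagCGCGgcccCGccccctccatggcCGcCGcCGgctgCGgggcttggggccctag
Impg2: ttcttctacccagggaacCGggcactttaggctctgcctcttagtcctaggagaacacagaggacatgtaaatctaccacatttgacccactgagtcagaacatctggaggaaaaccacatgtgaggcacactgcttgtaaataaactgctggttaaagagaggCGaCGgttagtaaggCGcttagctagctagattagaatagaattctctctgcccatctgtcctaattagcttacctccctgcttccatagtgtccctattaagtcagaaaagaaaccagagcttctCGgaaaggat
Zc3h6: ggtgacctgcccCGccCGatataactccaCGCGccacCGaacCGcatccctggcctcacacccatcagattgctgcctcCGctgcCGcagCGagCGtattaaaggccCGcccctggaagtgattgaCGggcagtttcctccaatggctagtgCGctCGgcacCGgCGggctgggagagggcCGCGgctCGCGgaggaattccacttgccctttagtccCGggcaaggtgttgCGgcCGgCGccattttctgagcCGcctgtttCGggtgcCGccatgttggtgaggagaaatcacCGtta

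The Zc3h6 promoter held 28 CG dinucleotides and 64% G and C, and that of Xxylt1 held 19 and 60%. Impg2 had 5 CG dinucleotides and 45.7% G and C, against a median of 7 CG dinucleotides over 32851 mouse promoters of the same length. Promoter motifs were searched on both strands. The letters CCAAT occurred in the promoters of Xxylt1 and Zc3h6 and in 37.4% of all promoters. The letters TGANTCA, the binding element of AP-1, occurred in the Impg2 promoter and in 7.81% of all promoters. The letters TATAAA were in none of these 3 windows and in 13.6% of all promoters. No window held more than 1 of the motifs, so no matches overlapped.

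Processed intensities had a 75th percentile of 272 on the KO array and 208 on the WT array of the striatum, and of 502 to 768 on the other 10 arrays. Il18 lay at -4.35 to -3.12 on the KO arrays, against 0.57 to 1.12 on the WT arrays, and every KO array still read above background at its probe. Genotype and position on the slide cannot be told apart, since the KO array took the same position on all 6 slides, and region, slide and scan cannot be told apart either. The array labelled amygdala WT stood apart from its label. Across 23809 probes its Pearson r was 0.982 with the amygdala KO array and 0.996 with hypothalamus WT, the array closest to it. Marker levels were summed on the linear scale, not as log2, so the brightest markers weigh most in a sum. The summed level of 10 hypothalamus markers was 3.75 on the amygdala KO array, against 183 on the array labelled amygdala WT. It was 189 on hypothalamus KO and 158 on hypothalamus WT. Olfactory bulb, striatum, hippocampus and cerebral cortex markers had their highest sums in the regions so labelled, the cortex markers in prefrontal cortex. For the member probes that kept a single direction, mean differences are therefore given with and without the pair labelled amygdala. The mean and median differences of other genes and of marker lists below hold that pair.

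Xxylt1 was higher on the KO array in 6 of 6 regions. Its levels on the KO arrays were -2.19 in amygdala, -2.10 in hippocampus, -2.27 in hypothalamus, -2.76 in olfactory bulb, -2.38 in prefrontal cortex and -4.62 in striatum. On the WT arrays they were -2.97, -2.66, -2.75, -3.24, -3.0 and -5.31 in the same order of regions. Both striatum arrays were far below the rest, and leaving them aside the KO range of -2.76 to -2.10 still overlapped the WT range of -3.24 to -2.66. Within a region the difference was 0.78, 0.56, 0.48, 0.48, 0.62 and 0.69, a mean of 0.60 ± 0.12 (SD, n = 6 regions), or 1.52-fold. The scanner software's spot error of the difference was between 0.21 and 0.23 outside the striatum and 1.25 in the striatum, where neither array was well above background. Over the 5 regions with both arrays above background the mean was 0.58, and without the arrays labelled amygdala it was 0.56 ± 0.092 (SD, n = 5).

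Impg2 was lower on the KO array in 6 of 6 regions at its brightest probe, A_52_P26106. The KO levels were -4.97 in amygdala, -4.50 in hippocampus, -4.67 in hypothalamus, -4.47 in olfactory bulb, -4.79 in prefrontal cortex and -3.10 in striatum, and the WT levels were -3.22, -3.60, -3.26, -3.56, -3.75 and -2.18. Outside the striatum every KO array lay below every WT array, while the striatum KO array, at -3.10, lay above all WT arrays but that of the striatum. The differences were -1.75, -0.89, -1.41, -0.92, -1.04 and -0.92, a mean of -1.16 ± 0.35 (SD, n = 6 regions), so that WT was 2.23-fold above KO. The widest was that labelled amygdala, and the mean without it was -1.04 ± 0.22 (SD, n = 5). On the KO array of the prefrontal cortex the probe was not well above background, so the 2.05-fold of WT over KO there rests on a dim value. The probe was dim throughout, with processed intensities of 19.7 to 32.2 on the KO arrays and 37.4 to 67.1 on the WT arrays, which did not overlap.

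The second probe of Impg2, A_51_P153624, was also lower on the KO array in 6 of 6 regions, by a mean of -1.25 ± 0.90 (SD, n = 6 regions), or -1.07 ± 0.88 (SD, n = 5) without the pair labelled amygdala. It was well above background on 1 KO array, that of the olfactory bulb, and on 5 WT arrays, all but that of the striatum. In olfactory bulb, where both arrays were above background, the level was -5.01 on the KO array and -4.16 on the WT array. Where only the WT array was above background, its level was set against the lowest signal well above background on the KO array. It stood 2.83-fold above that signal in amygdala, 2.54-fold in hypothalamus, 1.38-fold in prefrontal cortex and 1.08-fold in hippocampus. In striatum the levels of -3.99 on the KO array and -3.85 on the WT array were both not well above background. Before scaling, the processed intensity in striatum was higher on the KO array, at 17.1 against 14.5 on the WT array. The lower KO level in striatum thus came only with the scaling. The third probe, A_52_P553221, was not well above background on any array and was lower in 4 regions and higher in 2.

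Zc3h6 was higher on the KO array in 6 of 6 regions at probe A_52_P139819, the only member probe above background on all 12 arrays. Its KO levels were -1.22 in amygdala, -1.12 in hippocampus, -1.52 in hypothalamus, -0.81 in olfactory bulb, -1.66 in prefrontal cortex and -2.32 in striatum, against WT levels of -1.69, -1.51, -1.83, -1.27, -2.10 and -2.75. The KO and WT ranges overlapped, since the regions differed from each other by more than the genotypes did. The differences were 0.47, 0.39, 0.31, 0.46, 0.45 and 0.43, a mean of 0.42 ± 0.060 (SD, n = 6 regions), or 1.34-fold, and without the pair labelled amygdala the mean was 0.41 ± 0.061 (SD, n = 5). The spot error of each difference was 0.21 to 0.29, wider than the spread of the differences. The other probe, A_51_P287587, was above background only on both olfactory bulb arrays, at -5.16 for KO and -5.30 for WT, and was higher in 2 regions and lower in 4. The mean over both probes of Zc3h6 was -0.030, so its direction rests on the brighter probe.

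**Figure D1:**
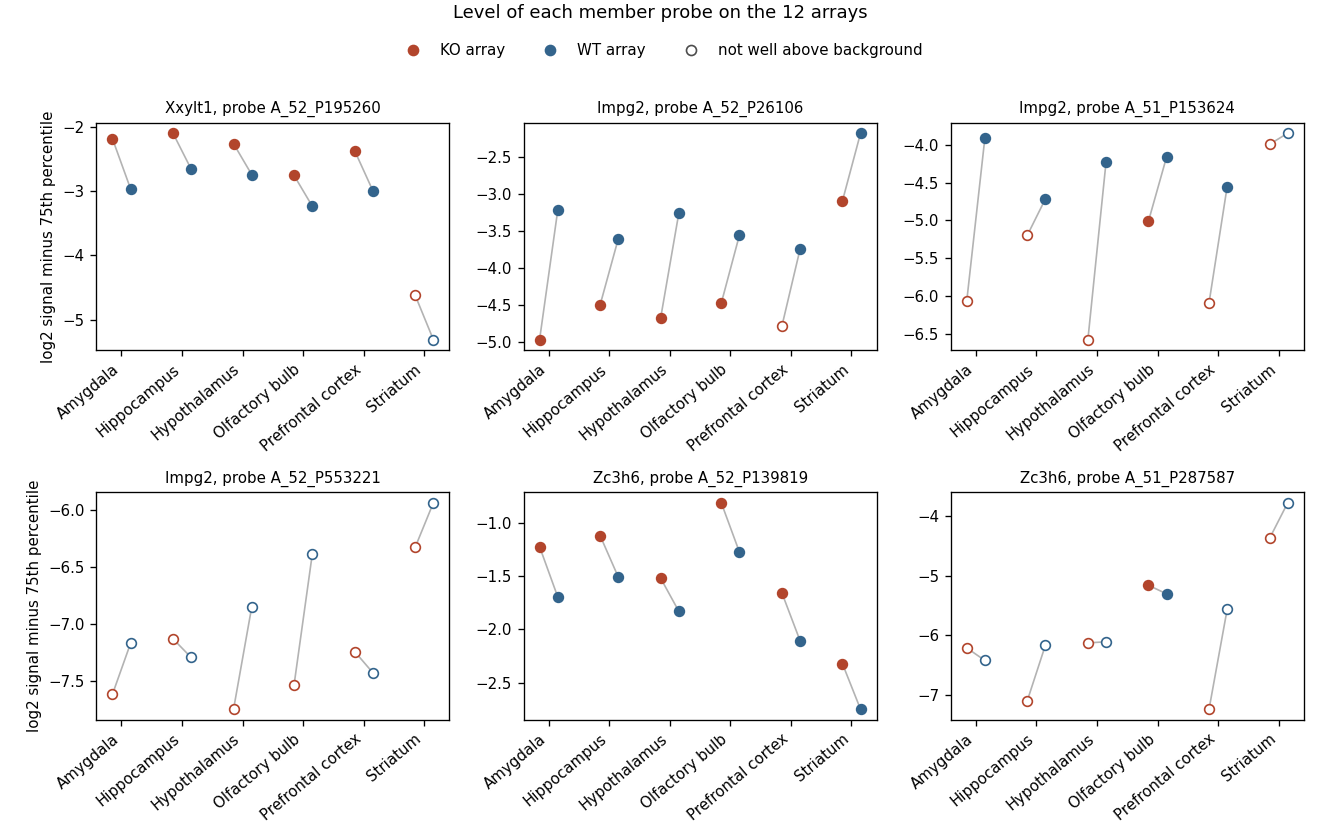
Level of each of the 6 member probes on the 12 arrays (y axis, log2 signal minus the array's 75th percentile), by region (x axis), with KO points left of WT points, a line joining the pair of a region, and open points not well above background. KO lies above WT in every region for Xxylt1 and for Zc3h6 probe A_52_P139819, and below WT in every region for Impg2 probes A_52_P26106 and A_51_P153624.

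In all, 2 of the member probes were higher on the KO array in every region and 2 lower, and the other 2 were of mixed direction. Over the 30970 tested probes with a value on every array, 9.79% were higher on the KO array in all 6 regions and 8.62% lower, so a single direction was common and the members' own directions, which chose them, are not read against it. By its smallest regional difference, Xxylt1 stood 9th of the 3033 probes higher in all 6 regions and Zc3h6 45th, and Impg2 probe A_52_P26106 stood 8th of the 2670 lower in all 6. By the mean difference the places were 136th for Xxylt1, 546th for Zc3h6 and 30th for that Impg2 probe. Impg2 probe A_51_P153624 stood 502nd of the 2670 by its smallest regional difference and 21st by its mean, on KO arrays below background in 5 regions. These places are on the values that chose the genes and describe only their size. Nearest to the limit of a single direction lay the striatum difference of -0.15 at A_51_P153624, inside it, and the probe A_52_P553221 with its 2 regions above 0, outside it. Over all tested probes the median mean difference was -0.012, with quartiles of -0.14 and 0.11.

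**Figure D2:**
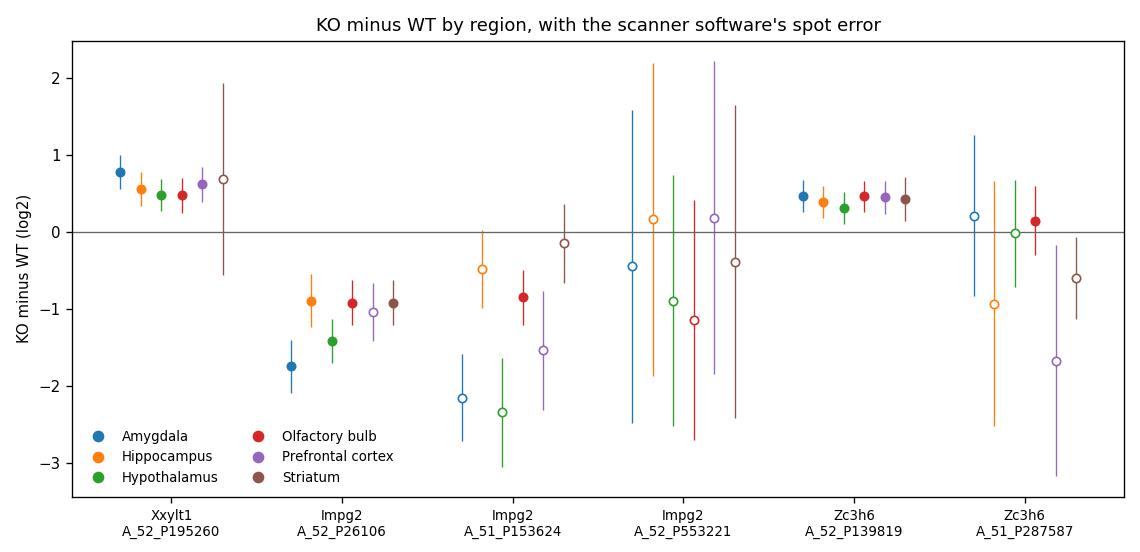
Difference between the KO and the WT array (y axis, log2, KO minus WT) of each member probe (x axis) in the 6 regions (colours), with bars of 1 scanner spot error of the difference and open points where an array was not well above background. The 6 points of Zc3h6 probe A_52_P139819 lie between 0.31 and 0.47, those of Impg2 probe A_52_P26106 between -1.75 and -0.89, and both dim probes of these genes cross 0.

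The processed intensity before scaling differed between the arrays as a whole. Its 75th percentile was higher on the KO array in 5 of 6 pairs and lower in hypothalamus, at 596 on the KO array and 625 on the WT array. For Xxylt1 the intensity was 169 in amygdala, 156 in hippocampus, 124 in hypothalamus, 106 in olfactory bulb, 105 in prefrontal cortex and 11.04 in striatum on the KO arrays, against 80.0, 87.5, 93.1, 67.4, 63.0 and 5.25 on the WT arrays. Zc3h6 had 329, 308, 208, 408, 173 and 54.4 on the KO arrays, against 193, 194, 176, 263, 117 and 31.0 on the WT arrays. Both were brighter on the KO array of each pair and Impg2 probe A_52_P26106 dimmer. For Xxylt1 and Zc3h6 that is also the direction of the whole arrays in 5 of the 6 pairs. The authors' deposited table of KO over WT ratios listed Xxylt1 and Zc3h6 probe A_52_P139819 in 5 regions, all but striatum. On the log2 scale, the ratios of Xxylt1 in the authors' deposited table ran from 0.48 to 0.77 and those of Zc3h6 from 0.31 to 0.47, and none of the other member probes was listed.

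**Figure D3:**
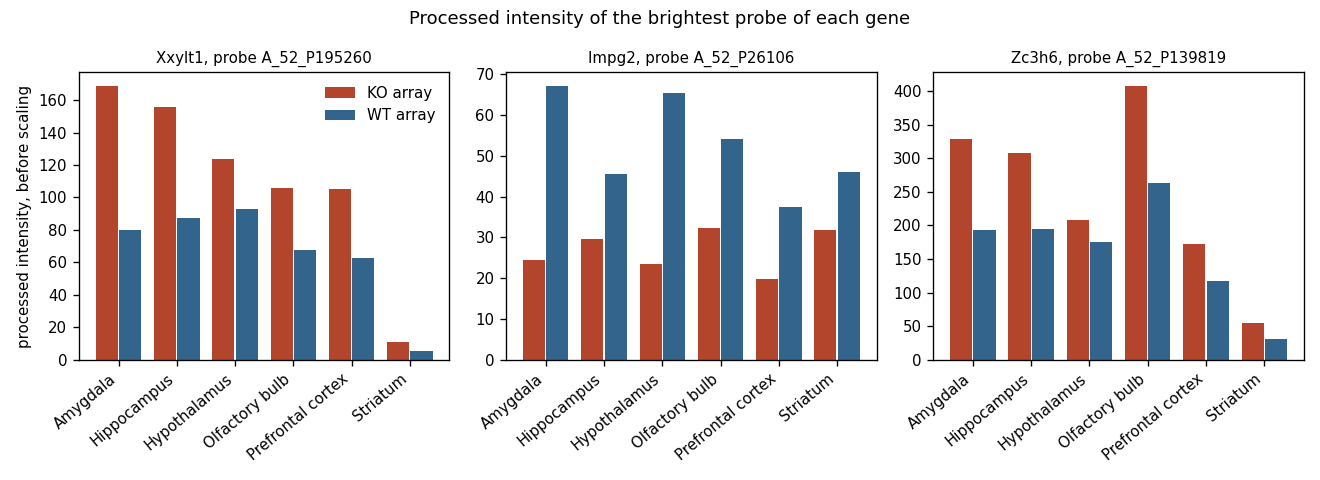
Processed intensity before scaling (y axis, linear, from 0) of the brightest probe of each gene on the KO and WT arrays (bars, 1 array each) of the 6 regions (x axis). Xxylt1 and Zc3h6 are brighter and Impg2 dimmer on the KO array of every pair, and the striatum bars are the lowest of Xxylt1, at 11.04 for KO and 5.25 for WT, and of Zc3h6, at 54.4 for KO and 31.0 for WT.

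Beside these differences, microglia markers were higher on the KO arrays in 12 of 14 members with a median difference of 0.16, and 0 of them passed the limma threshold, beside 0.0451% of all tested probes. At an unadjusted p under 0.05 there were 8 of the 14 (57.1%), beside 25.1% of all tested probes. Their summed level on the linear scale was 39.5 to 63.1 on the KO arrays and 37.7 to 60.6 on the WT arrays. It was higher on the KO array in 6 of 6 regions, and all 14 were above background on at least 1 array. Of the other cell type lists, ependymal, choroid plexus and red blood cell markers had median differences of -0.26, -0.23 and -0.23. Choroid plexus markers ranged from a median of -2.38 in the pair labelled amygdala to 1.35 in striatum. Ependymal markers ranged from -1.58 in that pair to 0.22 in hippocampus, and the red blood cell list had only 2 tested genes. Endothelial and pericyte markers had a median of -0.048, oligodendrocyte markers 0.016, neuronal markers 0.043 and astrocyte markers 0.0067. The summed linear level was higher on the KO array in 1 of 6 regions for astrocyte markers and in 1 of 6 for endothelial and pericyte markers. In RNA of whole regions, fewer cells of a type and less RNA per cell cannot be told apart, and the part of the cell makeup in the members' differences was not tested.

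The level of each member across the regions, averaged over genotypes, played no part in choosing the genes and was tested with limma, each region against the mean of the other 5 with genotype as a covariate and p-values adjusted over 31029 probes by Benjamini-Hochberg. Only 2 arrays stand behind each region. The error of these tests came from the spread of the KO minus WT differences over regions, the values on which the genes were chosen. The SE and p-values of the members may therefore be too small. Without a genotype term the regions with adjusted p under 0.05 fell from 5 to 1 for Xxylt1 and from 5 to 2 for Zc3h6 A_52_P139819. For both tested Impg2 probes they fell from 1 to 0. Under the threshold of 0.05 a large share of all tested probes passed, 46.2% in amygdala, 34.9% in hippocampus, 29.2% in hypothalamus, 50.1% in olfactory bulb, 32.6% in prefrontal cortex and 66.6% in striatum. A member that passed shares this with many other probes.

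Zc3h6 had its highest level in olfactory bulb and its lowest in striatum. In olfactory bulb it lay 0.73 above the mean of the other regions (SE 0.064, limma adjusted p = 0.00015) and in striatum 1.06 below (difference -1.06, limma adjusted p = 2.0e-05). In hippocampus it was higher by 0.40 (limma adjusted p = 0.0038) and in the region labelled amygdala by 0.23 (limma adjusted p = 0.024), and in prefrontal cortex it differed by -0.27 (limma adjusted p = 0.017). The amygdala call was lost, at 0.26, without the array labelled amygdala WT. The hypothalamus value of -0.029 (SE 0.064, limma adjusted p = 0.75) did not pass. From high to low the mean levels were -1.04 in olfactory bulb, -1.31 in hippocampus, -1.46 in amygdala, -1.68 in hypothalamus, -1.88 in prefrontal cortex and -2.53 in striatum. Neighbours in this order lay 0.14 to 0.66 apart, and only striatum was clear of its neighbour on every array, since the KO and WT values of all other adjoining regions overlapped. Without the striatum arrays Zc3h6 remained high in olfactory bulb (0.54, limma adjusted p = 0.0011) and low in prefrontal cortex (-0.51, limma adjusted p = 0.0037), while hippocampus (0.20, limma adjusted p = 0.062) and amygdala (0.019, limma adjusted p = 0.84) no longer passed and hypothalamus did (-0.25, limma adjusted p = 0.047).

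The level of Xxylt1 was lowest in striatum. The mean over both striatum arrays was -4.97, against a mean of -2.63 over the other 5 regions (limma adjusted p = 4.4e-06). Neither striatum array was well above background. Set against the lowest signal well above background on the striatum arrays, the other regions were 2.55-fold higher, which is no firm minimum. The mean levels elsewhere were -2.38 in hippocampus, -2.51 in hypothalamus, -2.58 in amygdala, -2.69 in prefrontal cortex and -3.0 in olfactory bulb. The KO and WT values of each of these regions, which also hold the genotype difference, overlapped those of its neighbour in the order. Taken by genotype, KO and WT arrays gave the same order but for hypothalamus and the region labelled amygdala, which changed places. With the striatum in the mean of the others, hippocampus (0.77, limma adjusted p = 0.00076), hypothalamus (0.62, limma adjusted p = 0.0031), amygdala (0.53, limma adjusted p = 0.0030) and prefrontal cortex (0.40, limma adjusted p = 0.0096) passed as higher, and olfactory bulb did not (0.025, limma adjusted p = 0.81). Without the striatum arrays, only hippocampus was higher (0.31, limma adjusted p = 0.030) and olfactory bulb lower (-0.46, limma adjusted p = 0.0042), with prefrontal cortex at -0.070. With normexp background correction all 5 calls were lost, the striatum contrast was 0.027 and olfactory bulb alone passed, so the order of regions for Xxylt1 depends on how background was treated.

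Impg2 was higher in striatum by the scaled level of A_52_P26106, by 1.44 over the other regions (SE 0.17, limma adjusted p = 0.00029). Its level there averaged -2.64, against -4.08 over the other 5 regions. The processed intensity in striatum, a mean of 38.9, lay within the 28.6 to 45.8 of the other regions, on arrays whose 75th percentile was the lowest of all. In the other 5 regions the level averaged between -4.27 and -3.96 and the contrasts did not pass, with limma adjusted p from 0.056 in prefrontal cortex to 0.53 in hypothalamus. Without the array labelled amygdala WT, prefrontal cortex and amygdala passed too, and with quantile scaling olfactory bulb, prefrontal cortex and hippocampus did beside striatum. These means lay closer together than the KO and WT values within each region. At A_51_P153624 the striatum contrast of 1.13 (SE 0.42, limma adjusted p = 0.046) came from arrays not well above background. It was lost when any of 3 other regions was left out, and without the filter on dim probes. The probe met that filter on just 6 arrays, 5 of them WT, the genotype in which it was higher.

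The genes around the members did not pass the threshold for KO minus WT. For this comparison limma was fitted to all 31029 tested probes with region as a block, and 14 of them (0.0451%) passed, while 25.1% had an unadjusted p under 0.05. If the pools of different regions share mice, these p-values are smaller than separate animals would give. Of the 60 nearest tested named genes, 10 on each side of each member, 0 passed, 28 were higher and 32 lower, and 12 (20%) had an unadjusted p under 0.05. Their median difference was -0.018, which took the opposite sign (0.039) when arrays were scaled to their medians.

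The tested genes on either side of Xxylt1 are Fam43a, at -0.13 (SE 0.087), and Acap2, a regulator of ARF GTPases, at -0.0012 (SE 0.065). The smallest p among its neighbours belonged to Ncbp2, a nuclear cap-binding subunit, at 0.31 (SE 0.077, limma adjusted p = 0.091), Senp5, a SUMO protease, at -0.28 (limma adjusted p = 0.11), and Hes1, a repressor induced by Notch, at 0.50 (limma adjusted p = 0.12). Impg2 lies between Senp7, another SUMO protease, at -0.15 (limma adjusted p = 0.16), and Tfg, a protein of export from the endoplasmic reticulum, at 0.084 (limma adjusted p = 0.30). Among the neighbours of Impg2, Trmt10c, a subunit of mitochondrial RNase P, stood at 0.40 (limma adjusted p = 0.080) and Alcam, a cell adhesion molecule, at -0.21 (limma adjusted p = 0.23). Zc3h6 adjoins Zc3h8, another CCCH zinc finger gene, at -0.22 (limma adjusted p = 0.14), and Ttl, the tubulin tyrosine ligase, at 0.015 (limma adjusted p = 0.93). Snrpb, a core protein of the spliceosome, at 0.29 (limma adjusted p = 0.081), and Sirpa, an inhibitory receptor of myeloid cells and neurons, at 0.20 (limma adjusted p = 0.16), were the others of smallest p near Zc3h6.

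Other genes of the members' pathways did not pass either. Of 124 listed genes 96 were tested, 0 passed, 34 were higher and 62 lower, and 16 (16.7%) had an unadjusted p under 0.05, beside 25.1% of all probes. Their median difference was -0.050, against -0.012 over all tested probes, and it was 0.0061 under median scaling. The enzymes that build sugar chains on EGF repeats, the pathway of Xxylt1, were lower for 9 of 11 members, and the median difference was -0.12. Gxylt1, which adds the xylose that the enzyme encoded by Xxylt1 extends, averaged 0.26 on the KO arrays and 0.50 on the WT arrays, a difference of -0.23 (SE 0.065, limma adjusted p = 0.10) with the KO array below the WT array in 6 of 6 regions. Poglut2, a glucosyltransferase of EGF repeats, differed by -0.29 (limma adjusted p = 0.11), also lower in 6 of 6, and Pofut1, the O-fucosyltransferase of Notch, by -0.21 (limma adjusted p = 0.20). The differences of all 3 have the opposite sign to that of Xxylt1.

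Of 19 Notch receptors, ligands and targets, 7 were higher and 12 lower, with a median of -0.054. Hes1, already named as a neighbour, averaged -4.29 on the KO arrays and -4.79 on the WT arrays and was higher in 6 of 6 regions. It was dim, well above background on 10 of the 12 arrays. The other targets in the list are named after their values were seen. Hes5, a far brighter one, differed by -0.15 and was lower in 5 regions. Hey1 stood at 0.055, Hey2 at 0.17, Heyl at -0.054 and Nrarp at 0.093. The receptors Notch1 and Notch3 stood at -0.24 (limma adjusted p = 0.14) and -0.20 (limma adjusted p = 0.20). Of 15 tested genes of the linkage region and chains of glycosaminoglycans, the sugars of proteoglycans, 9 were higher and 6 lower. Among them B4galt7, a galactosyltransferase of the linkage region, differed by 0.34 (limma adjusted p = 0.085) and was higher in 6 of 6 regions. Csgalnact1, which starts chondroitin chains, differed by -0.16 (limma adjusted p = 0.19), and Ext1, which extends heparan sulfate, by 0.19 (limma adjusted p = 0.27).

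Genes that work with Impg2 in the retina were mostly dim in these regions. Of 28 photoreceptor and interphotoreceptor matrix genes with a probe, 14 were tested and 7 were above background on no array. Among the 14 tested, 5 were higher and 9 lower, with a median of -0.041. Rcvrn, the photoreceptor calcium sensor recoverin, differed by -0.38 (limma adjusted p = 0.093), with 5 of 6 regions below 0. Nrl, a transcription factor of rods, stood at 0.26 (limma adjusted p = 0.17) and Pde6g, a subunit of the rod phosphodiesterase, at -0.16 (limma adjusted p = 0.37). The summed linear level of the tested genes was 2.28 to 4.02 on the KO arrays and 2.61 to 3.62 on the WT arrays, ranges that overlapped. It was higher on the KO array in 1 of 6 regions. Of 16 genes of the hyaluronan and chondroitin matrix of brain, 5 were higher and 11 lower, among them Hapln4 and Hapln1, link proteins that hold proteoglycans on hyaluronan, at 0.47 (limma adjusted p = 0.10) and 0.16 (limma adjusted p = 0.21), each higher in 6 of 6 regions. Cspg5, a brain chondroitin sulfate proteoglycan, stood at -0.11 (limma adjusted p = 0.24).

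The CCCH zinc finger genes other than Zc3h6 were higher in 6 and lower in 15 of the 21 tested, with a median of -0.10. Zc3h11a, a factor of mRNA export, averaged 3.47 on the KO arrays and 3.85 on the WT arrays, a difference of -0.37 (SE 0.081, limma adjusted p = 0.080). Zc3h13, a component of the complex that methylates adenosine in mRNA, stood at -0.46 (limma adjusted p = 0.11) and Zc3h7a at -0.29 (limma adjusted p = 0.12). All 3 were lower in 6 of 6 regions, opposite in sign to Zc3h6.

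**Figure D4:**
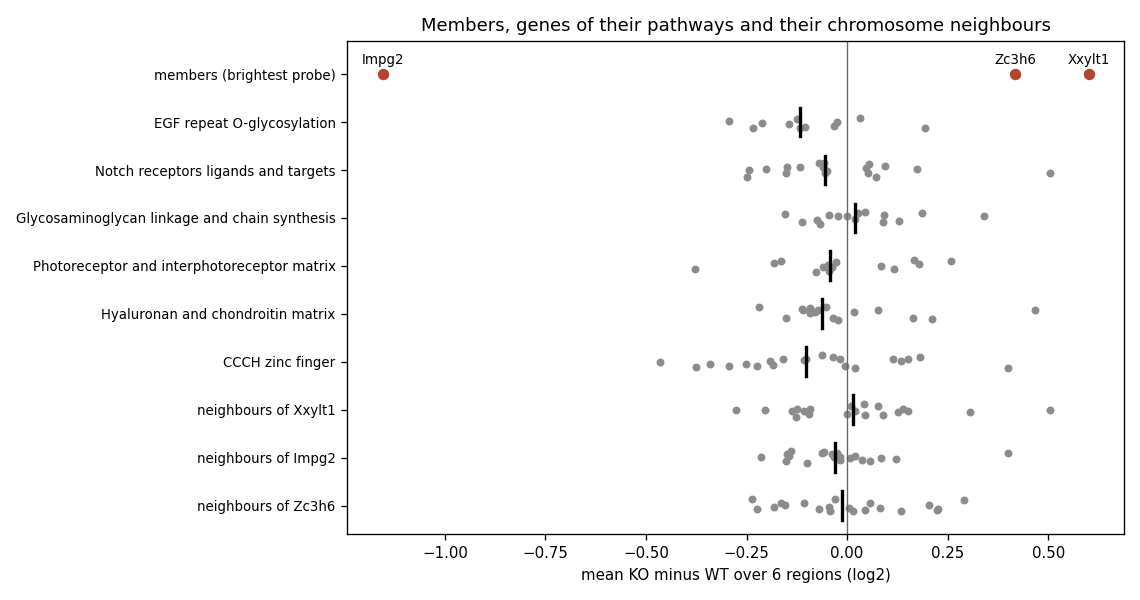
Mean difference over the 6 regions (x axis, log2, KO minus WT) of the brightest probe of each member (red), of the tested genes of 6 pathway lists and of the 20 neighbours of each member (grey points, 1 gene each), with the median of each row as a black bar. The medians lie between -0.12 and 0.020, and the members lie at -1.16, 0.42 and 0.60.

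The genes most like each member were sought among 14048 named genes, as a description of 12 arrays that share regions and scaling. By Pearson r of the level over the 12 arrays, Xxylt1 was most like Atad3a (r = 0.990), Tfam, Pdcd7, Emc3 and Scarb2, and 168 genes had r over 0.95. Zc3h6 was most like Pla2g7 (r = 0.964), Elovl6, Yipf6, Paics and H3c14, and 4 genes were over 0.95. Impg2 was most like Atm (r = 0.913), Pgghg, Fam204a, Itih5 and Yeats2, and 0 genes were over 0.95. Atm, the DNA damage kinase, and Pdcd7 lie on chromosome 9 as Il18 does. The difference of Atm was -0.89 and that of Pdcd7 was 0.28, of opposite sign.

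By the cosine of the 6 differences, a measure of likeness in sign and relative size, Xxylt1 was most like Txnrd2, Mettl3, Prkab1, Zc3h6 and Znrd2, from 0.989 to 0.988, and 189 genes were over 0.95. Zc3h6 was most like Znrd2 (0.992), Nsmce1, Xxylt1, Eid2 and Nr1d1, and 153 genes were over 0.95. Impg2 was most like Cyp27b1 (0.988), Etd, Fos, Il18 and Rab7b, with 31 genes over 0.95. Il18 itself had a cosine of 0.982 with Impg2, with mean differences of -4.36 for Il18 and -1.16 for Impg2. A high cosine follows in part from the choice of the members for a single direction in every region, both between Impg2 and Il18, which was below 0 in every region too, and between Xxylt1 and Zc3h6 (0.988).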

How the data were processed

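RNA from 6 brain regions of IL-18 KO and WT mice was measured on 12 one-colour arrays. The authors deposited spot intensity values from Agilent Feature Extraction 9.5.3.1, background-subtracted and detrended, per the file headers, and, as a further table, the ratio of KO over WT, whose scaling is not stated in the sources used here. From the deposited intensity, log2 was taken and each array's 75th percentile over 43379 gene spots subtracted; control and outlier spots were left out and spots of a probe averaged. Accessions were named through a RefSeq gene table (GRCm38.p6), which named 22951 of 41174 probes (55.7%). Probes well above background on at least 6 arrays (31029, among them 4 of the 6 member probes) were fitted with limma 3.58.1 in R 4.3.3, with region as a block for KO minus WT and genotype as a covariate for region levels, with Benjamini-Hochberg adjustment and a threshold of 0.05; the code was tested on simulated data. The number of arrays limits the precision.

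The members and lists were chosen with earlier results of these data known. Of each list, genes past the threshold or else the 3 of smallest p were named; of the neighbours, the nearest on each side and the 3 of smallest p; by likeness, the 5 most like each member. A gene was represented by its brightest probe. Where an array was dim, the bright one was set against the lowest signal well above background on the dim array, or the dim probe's own where higher. That is no firm minimum, since a probe above this lowest signal may still not be well above background. The scanner files used hold no mean signal, so the normexp alternative (offset 50) used median signals. Other alternatives were median and quantile scaling, other filters, a trend and robust variance, fits without a term, and leaving out each region.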

Additional observations from a re-analysis of the deposited data

Results flagged for a closer look

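Within a genotype, 1 of the 6 regions stood far from the others for 2 probes, in both genotypes. The level of Xxylt1 was -4.62 on the KO array and -5.31 on the WT array of the striatum, far below the other regions, and neither array was well above background there. The level of Impg2 probe A_52_P26106 was -3.10 on the KO array and -2.18 on the WT array of the striatum, far above the other regions. Before scaling, the mean intensity of that Impg2 probe in striatum, 38.9, lay within the 28.6 to 45.8 of the other regions. Chance sets a sample apart in this way in about 5% of groups of like samples. The groups here held different regions, and 66.6% of all tested probes passed in striatum. That rate therefore does not measure how unusual these values are.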

How the results depend on the processing

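Under all alternatives run, the mean differences of Xxylt1 and of Impg2 kept their sign, and that of Zc3h6 A_52_P139819 did except as the mean of the gene's probes (-0.030). The dim probe A_51_P287587 stood at -0.48 over all regions and at 0.14 in the region with both arrays above background, an alternative chosen after seeing the data. Normexp background correction brought the differences nearer to 0, to 0.21 for Xxylt1, -0.52 for Impg2 A_52_P26106 and 0.26 for Zc3h6 A_52_P139819. Leaving out 1 region at a time gave 0.56 to 0.63 for Xxylt1, -1.21 to -1.04 for Impg2 A_52_P26106 and 0.41 to 0.44 for Zc3h6.

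The number of regions past the threshold was 5 for Xxylt1 and became 1 with normexp (olfactory bulb, not among the 5) and 1 without a genotype term, and it was 2 to 5 with a region left out, the 2 without the striatum. For Impg2 A_52_P26106 it was 1 and became 4 with quantile scaling, 2 with normexp, 0 without a genotype term, 3 without the array labelled amygdala WT and 0 to 2 with a region left out. For A_51_P153624 it was 1 and became 0 without a filter on dim probes, 0 without a genotype term and 0 to 1 with a region left out. For Zc3h6 A_52_P139819 it was 5 and became 3 with median scaling, 2 without a genotype term and 3 to 5 with a region left out. Its olfactory bulb and striatum contrasts passed in every fit that held those regions. With normexp the striatum contrast of Xxylt1 was 0.027 and the amygdala contrast of Zc3h6 -0.0083, and without the striatum arrays the prefrontal cortex contrast of Xxylt1 was -0.070 (-0.070 to 0.58 over the regions left out). The cause of these changes was not tested.

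Of the pathway genes 3 passed with normexp (Gxylt1, Rcvrn and Zc3h11a), and 1, Zc3h11a, among probes above background on all 12 arrays and 1, again Zc3h11a, with a trend and robust variance. Of the neighbours 5 passed with normexp (Ncbp2, Zpld1, Trmt10c, Dcbld2 and Snrpb), and 2, Trmt10c and Snrpb, with each of those other settings; Zpld1 and Dcbld2 were named after their values were seen. Over all probes the calls, 14 here, were 2231, 806 and 960 in those settings, and 1 to 10 with a region left out. Without the replicate block, region left out of the fit, 0 pathway genes and 0 neighbours passed and 2 probes in all. The median difference under median scaling was 0.0061 for pathway genes and 0.039 for neighbours, where that of all probes was 0.045. Of 312 values under alternatives, 246 were counted as kept. Contrasts counted so kept their direction and side of the threshold. Differences with no test moved by less than the spread between regions, that of 0.14 above included. Counts of regions past the threshold were also counted as kept where they went from 5 to 4. Signal over background limits what can be said of the dim Impg2 probes and of Xxylt1 in striatum.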
